A study of Drosophila melanogaster with 8 samples.

Results

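The genes described are 8 transcription factor genes grouped here as muscle identity genes: slou, lbe, lbl, ap, kn, vg, Poxm and C15. Most are known for giving Drosophila body wall muscles their individual identity, while C15 is best known from other tissues. The 8 genes were taken by symbol from a table of 17321 genes, and all had a row in it. Of the 8, 7 were tested between genotypes, among 10547 tested genes in all, and lbe lay below the minimum level for a test.

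RNA was measured in whole embryos of stages 14 and 15, when the body wall muscles and the nervous system differentiate. Controls were of the wild-type laboratory strain OrgR (Oregon R), and mutants lacked both the maternal and the zygotic function of esc (extra sex combs). The product of esc belongs to PRC2, a Polycomb complex that marks chromatin by methylation of histone H3 and keeps developmental genes silent. The sources used here name neither the esc allele nor the way in which mutant embryos were picked, and list no treatment for either group. For each library at least 200 embryos were pooled, and each genotype had 4 libraries, titled 1-1, 1-2, 2-1 and 2-2. Whether the second number stands for a repeat library of one pool is not stated, so libraries 1-1 and 1-2 (set 1) and libraries 2-1 and 2-2 (set 2) were averaged and each set was counted as 1 sample. Values are RPKM (reads counted per unit of gene length and of library size), and errors are the SD over the set means of a genotype (n = 2 sets).

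A body wall muscle of the embryo starts from a founder cell, which fuses with neighbouring myoblasts and passes its identity on to them. Identity rests on the combination of transcription factors that the founder holds, and these factors act before and during the start of contractile gene expression. The same genes are used again outside muscle, in neurons, heart, epidermis and the primordia of the adult appendages. Whole-embryo RNA does not tell these tissues apart, nor fewer cells of a type from less RNA per cell, so the values below are levels in the embryo as a whole.

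Of the whole series, the following facts bear on these values. Relative depth ran from 84.4% to 100% of the deepest library, and the labels state about 40 M reads per library. The median absolute log2 difference over 7032 genes with higher levels was at most 0.06 within a set, 0.12 to 0.16 from set to set of a genotype and 0.38 to 0.48 across genotypes. The esc transcript was at 10.7 to 12.4 RPKM in the OrgR libraries and at 3.56 to 4.40 RPKM in the esc libraries (log2 change -1.40 ± 0.11, SE, adjusted p = 0.00267). Over all tested genes the median log2 change was -0.18, and median-of-ratios scaling moved it by 0.17, to -0.02.

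The muscle identity genes that changed all fell in the mutants. They were kn, lbl, vg, Poxm and slou, 5 of the 7 tested, none rose, and ap and C15 did not pass the test at an adjusted p of 0.05 (Benjamini-Hochberg over all tested genes). In the background of all tested genes, 31.6% fell and 20.9% rose by the same test. The median log2 change of the 7 was -0.66, beside -0.18 for all tested genes. Summed over the 8 genes, the level was 157 to 163 RPKM in the OrgR libraries and 92.7 to 108 RPKM in the esc libraries. In all 7 tested genes each esc library lay below each OrgR library, an arrangement that 45.3% of tested genes also showed. Under median-of-ratios scaling 4 of the 7 fell, beside 13.4% of tested genes, and rises then made up 64.2% of all changed genes, against 39.9% as deposited. Log2 changes are on the log2(RPKM + 1) scale, with the standard error of the fit.

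**Figure D1:**
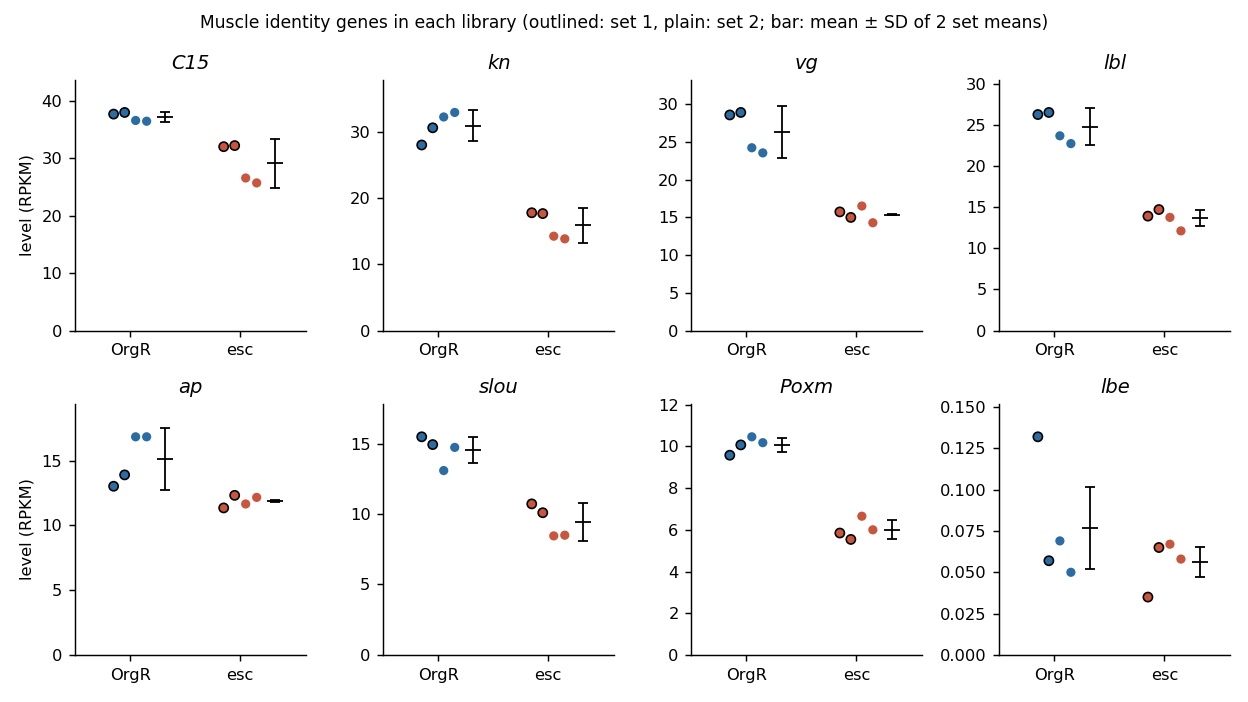
Level in RPKM of each of the 8 genes in the 4 OrgR (blue) and 4 esc (red) libraries, from libraries 1-1 to 2-2 left to right, with outlined points for set 1 and bars for the mean ± SD of the 2 set means. The groups are apart in the first 7 panels and overlap for lbe, which lies between 0.035 and 0.132 RPKM.

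The largest fall among the 8 was that of kn. The gene (also called collier) encodes a factor of the COE family, which in the embryo is needed for the dorsal DA3 muscle and acts in the head, in neurons and in the lymph gland. In OrgR its level was 28.0 RPKM (1-1), 30.6 RPKM (1-2), 32.3 RPKM (2-1) and 33.0 RPKM (2-2). In esc it was 17.8, 17.7, 14.3 and 13.9 RPKM, in the same order of titles. The lowest OrgR library stood well above the highest esc library, and within esc both libraries of set 2 were below those of set 1. The mean was 31.0 ± 2.3 RPKM in OrgR and 1.95-fold lower in esc, at 15.9 ± 2.6 RPKM (log2 change -0.93 ± 0.15, adjusted p = 0.0107). Of all tested genes, 2.47% had a lower log2 change than kn. Without OrgR set 2 the adjusted p was 0.0553.

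The 3 tested genes outside the list whose profile over the 8 libraries was nearest to that of kn were CG17211, Taf2 and rib. Likeness was the Euclidean distance between log2 profiles, each relative to its own OrgR mean, and it was 0.11 for CG17211 and 0.13 for both Taf2 and rib. Taf2, a subunit gene of the general transcription factor TFIID, went from 11.7 to 5.96 RPKM, a fall that follows from the way it was picked. The level of rib, which encodes a BTB domain factor known from the salivary gland and trachea, went from 201 to 102 RPKM, so genes at unlike levels shared this profile.

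The ladybird genes lbl and lbe are neighbouring homeobox genes, 7.44 kb apart, known for the segmental border muscle and for heart cells. They were at very different levels. The level of lbl was 26.3, 26.5, 23.7 and 22.7 RPKM in the OrgR libraries, in the order just used, and 13.9, 14.7, 13.8 and 12.1 RPKM in the esc libraries. All 4 esc libraries were lower than all OrgR libraries. Set 1 was above set 2 in both genotypes, by 0.18 on the log2 scale in OrgR and 0.14 in esc. The mean dropped 1.82-fold, from 24.8 ± 2.3 to 13.6 ± 0.97 RPKM (log2 change -0.82 ± 0.12, adjusted p = 0.00892). Among the 5 genes that fell, lbl was the one whose call held in each of 22 other settings, including each left-out set, with adjusted p-values from 0.000425 to 0.0496.

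For lbe the values were 0.132, 0.057, 0.069 and 0.050 RPKM in the OrgR libraries and 0.035, 0.065, 0.067 and 0.058 RPKM in the esc libraries. The groups overlapped, and the highest value, in OrgR library 1-1, stood apart from the other 7. In the OrgR libraries 66.4% of the genes in the table had a higher mean level than lbe. With no minimum level the log2 change of lbe was -0.03 on the log2(RPKM + 1) scale (adjusted p = 0.503). Values this far below the added 1 RPKM are compressed on that scale, so the fit could not decide whether lbe changed. The esc mean of lbe was 73.1% of its OrgR mean. The authors' gene models and their handling of reads that map to several places are not given in the sources used here, and their part in the low value of lbe was not tested. No exonic base of lbe or of lbl is shared with another annotated gene.

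The third gene to fall was vg (vestigial). Its product has no DNA-binding domain of its own and acts with the factor encoded by sd (scalloped), in muscles and in the primordium of the wing. The level of vg was 28.6, 28.9, 24.2 and 23.6 RPKM in the OrgR libraries and 15.7, 15.0, 16.5 and 14.3 RPKM in the esc libraries. The OrgR sets differed, with set 1 higher, while the esc set means were nearly equal. The mean dropped 1.71-fold (26.3 ± 3.4 RPKM in OrgR, 15.4 ± 0.025 RPKM in esc, log2 change -0.73 ± 0.12, adjusted p = 0.0124). With either esc set left out the call ended (adjusted p = 0.0524 without set 1 and 0.0617 without set 2).

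Poxm (Pox meso) encodes a paired domain factor of the somatic mesoderm, needed for a group of ventral and lateral muscles. Its level was 9.58, 10.1, 10.5 and 10.2 RPKM in the OrgR libraries and 5.85, 5.54, 6.65 and 6.0 RPKM in the esc libraries. The OrgR libraries were tightly grouped, and the highest esc library remained below them. The mean dropped 1.68-fold (10.1 ± 0.35 RPKM in OrgR, 6.01 ± 0.45 RPKM in esc, log2 change -0.66 ± 0.11, adjusted p = 0.0121). The call ended without OrgR set 1 (adjusted p = 0.0519), OrgR set 2 (adjusted p = 0.0646) or esc set 1 (adjusted p = 0.0547). Poxm shares 7.05% of its exonic bases with Ctr1B, a copper transporter gene that went the other way, from 3.54 to 29.6 RPKM. Reads were not assigned by strand, so reads in the shared stretch cannot be given to either gene with certainty.

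slou (slouch, also called S59) is an NK-class homeobox gene and one of the first described muscle founder genes. It was at 15.5, 14.9, 13.1 and 14.7 RPKM in the OrgR libraries and at 10.7, 10.1, 8.45 and 8.49 RPKM in the esc libraries. The groups did not overlap, and esc set 2 was the lowest set. The mean dropped 1.54-fold, from 14.6 ± 0.92 to 9.44 ± 1.4 RPKM (log2 change -0.58 ± 0.14, adjusted p = 0.0259). Under median-of-ratios scaling the log2 change was -0.41 and slou no longer passed (adjusted p = 0.0746). It also did not pass without OrgR set 1 (adjusted p = 0.102), OrgR set 2 (adjusted p = 0.0784) or esc set 2 (adjusted p = 0.109).

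The remaining genes, ap and C15, had lower means in esc but did not pass. ap (apterous) encodes a LIM-homeodomain factor of the lateral transverse muscles, which also acts in interneurons and in the dorsal wing. Its level was 13.0, 13.9, 16.8 and 16.8 RPKM in the OrgR libraries and 11.3, 12.3, 11.6 and 12.2 RPKM in the esc libraries. OrgR set 1 lay close to the esc values and OrgR set 2 farther off. The means were 15.1 ± 2.4 and 11.9 ± 0.053 RPKM (log2 change -0.32 ± 0.14, 95% confidence interval -0.69 to 0.05, adjusted p = 0.114). The interval includes both no change and a fall as large as that of Poxm, and ap did not pass in any of 22 other settings.

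C15 (also called clawless) encodes a homeodomain factor best known from the tip of the leg and from the amnioserosa of the embryo. It had the highest level of the 8 genes. The level was 37.7, 38.0, 36.6 and 36.5 RPKM in the OrgR libraries and 32.04, 32.2, 26.6 and 25.7 RPKM in the esc libraries. Libraries of one set were nearly alike, and within esc set 2 stood below set 1. The means were 37.2 ± 0.93 and 29.1 ± 4.2 RPKM (log2 change -0.35 ± 0.13, 95% confidence interval -0.69 to -0.01 with an unadjusted p of 0.0466, adjusted p = 0.0781). In 1 of 22 other settings, all 8 libraries with a correlation within sets, C15 passed (adjusted p = 0.0102).

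**Figure D2:**
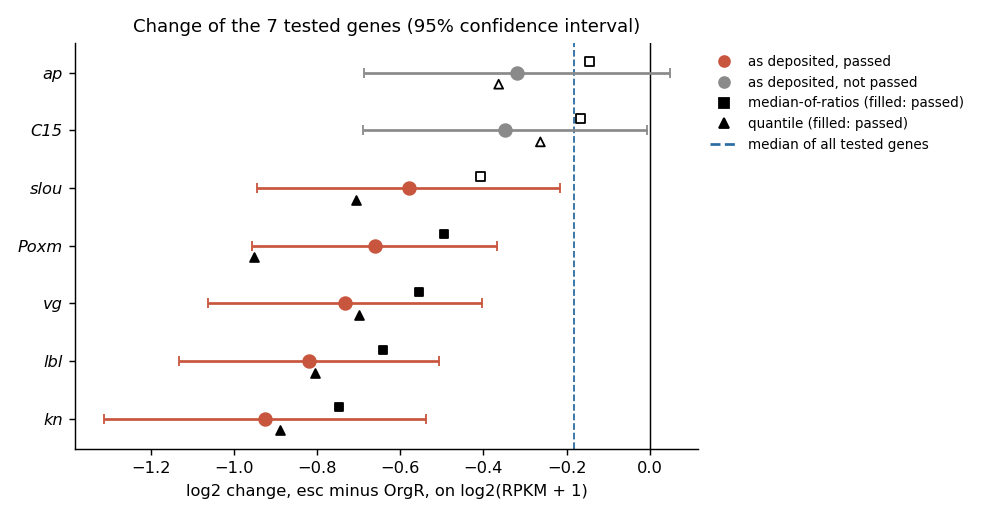
Log2 change of the 7 tested genes, esc minus OrgR, with 95% confidence intervals of the fit (red passed, grey not passed), and the change under median-of-ratios scaling (squares) and quantile normalization (triangles), filled where the gene passed. All points lie below 0, from -0.32 for ap to -0.93 for kn as deposited, and the dashed line marks the median of all tested genes at -0.18.

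RPKM is per length, so levels can be set in order. In OrgR the order by mean was C15, kn, vg, lbl, ap, slou, Poxm and lbe. The libraries of kn and vg, of vg and lbl, and of ap and slou overlapped, so these neighbours were not set apart by their spread. In esc the order of means was the same. There the libraries of kn, vg, lbl and ap overlapped from one to the next, with means of 15.9, 15.4, 13.6 and 11.9 RPKM, while C15 stood clear above them. The tested genes kept from 51.3% (kn) to 78.4% (ap) of their OrgR mean. Differences in fold between these genes were not tested.

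Of the 8 genes, 4 lie in the NK homeobox cluster on chromosome arm 3R, with tin and bap, homeobox genes of the heart and the visceral mesoderm. In dm6 coordinates the cluster ran from the start of tin at 21378977 to the end of slou at 21557182, 178 kb. In it lbl spans 21409979 to 21434133 on the minus strand, lbe 21441577 to 21446537 on the minus strand, C15 21499986 to 21512814 on the plus strand, and slou 21548661 to 21557182 on the minus strand. Of 18 genes of the table in this stretch 7 were tested, 4 of them fell, none rose and 3 did not pass, beside 31.6% of all tested genes that fell. The genes that fell were all homeobox genes: lbl and slou, tin (6.97 ± 0.53 to 4.09 ± 0.056 RPKM, log2 change -0.64 ± 0.11, adjusted p = 0.0134) and bap (13.4 ± 2.3 to 8.69 ± 0.50 RPKM, -0.56 ± 0.15, adjusted p = 0.0343). Each esc library was below each OrgR library for both tin and bap, as for 45.3% of tested genes. bap did not pass under median-of-ratios scaling (adjusted p = 0.102) or centred on the median gene (adjusted p = 0.05003), and neither tin nor bap passed when any one of the 4 sets was left out.

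Between the homeobox genes, the DNA repair helicase gene Fancm (5.02 and 4.24 RPKM in OrgR and esc, log2 change -0.19, adjusted p = 0.262) and CG7956 (14.1 and 12.5 RPKM, -0.16, adjusted p = 0.331) did not pass, nor did C15. After quantile normalization Fancm passed (-0.68, adjusted p = 0.0151). The other untested genes of the stretch, without lbe, reached at most 0.234 RPKM in any library.

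**Figure D3:**
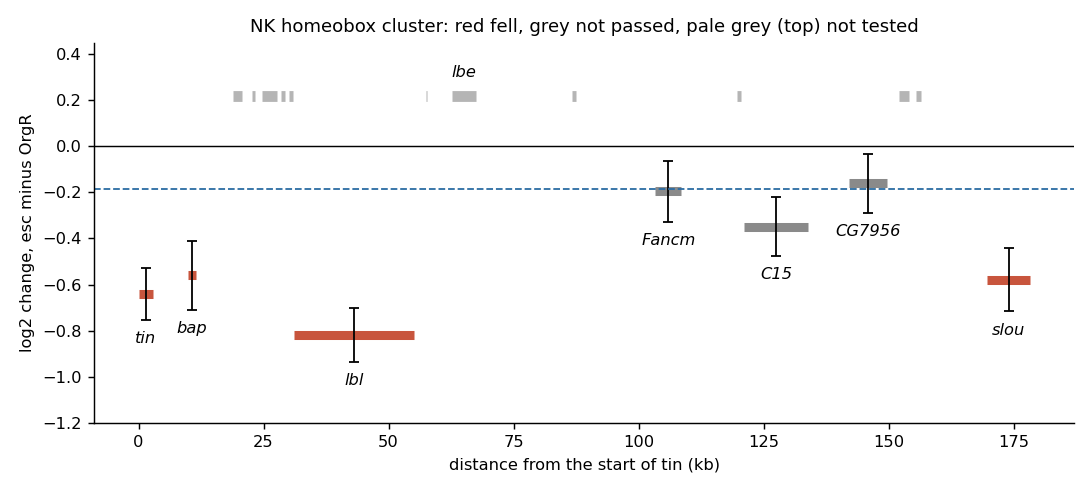
Log2 change (esc minus OrgR, vertical axis, bars are standard errors) of the genes of the NK homeobox cluster against their distance in kb from the start of tin, each drawn over its own span. Red genes fell, grey genes did not pass and pale spans at the top, lbe among them, were not tested. The dashed line is the median of all tested genes.

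The other 4 genes lie apart from one another. Poxm is on 3R (8319025 to 8333792, minus strand), and ap (5706202 to 5727525, minus strand), vg (12884201 to 12899385, plus strand) and kn (14772650 to 14807061, minus strand) are on 2R. The nearest tested protein-coding genes on either side of the 8 genes, outside the list, were 12 in number, of which 3 fell, 2 rose and 7 did not pass, shares near the 31.6% and 20.9% of all tested genes. Genes next to kn went opposite ways. BEAF-32, an insulator protein gene 19 bases away, fell by 0.73 ± 0.09 on the log2 scale (99.8 to 59.8 RPKM, adjusted p = 0.00634), and hui, 1.36 kb away on the other side, rose from 32.3 to 113 RPKM (1.78 ± 0.14, adjusted p = 0.00278). Next to ap, vlc fell from 59.2 to 35.6 RPKM (-0.72 ± 0.09, adjusted p = 0.0063) while CG34200 did not pass (0.17, adjusted p = 0.45). Both neighbours of vg, AspRS (-0.22, adjusted p = 0.0847) and NAT1 (-0.42, adjusted p = 0.0688, or 0.0433 without OrgR library 1-1), did not pass, nor did InR beyond slou (-0.26, adjusted p = 0.58) or COX7A beyond Poxm (-0.11, adjusted p = 0.325). After quantile normalization COX7A passed (-0.27, adjusted p = 0.0329).

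Among 17 other transcription factor genes with known roles in muscle identity, 13 fell, none rose and 4 did not pass, beside 31.6% of all tested genes that fell. Their median log2 change was -0.82, and their summed level was 541 to 587 RPKM in the OrgR libraries and 287 to 330 RPKM in the esc libraries. Ptx1, a homeobox gene also used in the gut and in neurons, fell most, with a log2 change of -1.42 ± 0.09 (62.1 ± 3.7 RPKM in OrgR, 22.5 ± 0.44 RPKM in esc, adjusted p = 0.0019). Next was tey, known for one ventral muscle, which was at 30.8, 33.1, 32.7 and 33.9 RPKM in the OrgR libraries and at 14.9, 15.9, 12.7 and 13.5 RPKM in the esc libraries (-1.15 ± 0.12, adjusted p = 0.00442). The members that did not pass were eve (-0.46, adjusted p = 0.0542), Six4 (-0.22, adjusted p = 0.189), sd (-0.65, adjusted p = 0.0871) and Lim3 (-0.17, adjusted p = 0.267). The count was 9 under median-of-ratios scaling, beside 13.4% of all tested genes that fell. It was 8 with the set number as a block in the fit, beside 8.52%. eve passed without OrgR library 1-1, OrgR library 2-2 or esc library 1-2 (adjusted p = 0.0462, 0.0414 and 0.0471). After quantile normalization eve (-0.51, adjusted p = 0.0485) and Six4 (-0.69, adjusted p = 0.0109) passed.

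Some of these genes act in the same muscles as some of the 8 genes, and they were chosen for naming after their values were seen. The lateral muscle homeobox gene lms fell (11.5 ± 1.9 RPKM in OrgR, 5.24 ± 0.42 RPKM in esc, log2 change -0.995 ± 0.15, adjusted p = 0.00993), though 39.3% of its exonic bases are shared with another gene. The Iroquois homeobox genes ara (37.4 to 18.6 RPKM, -0.97) and caup (54.7 to 26.1 RPKM, -1.04) act with ap in lateral transverse muscles and fell with adjusted p-values of 0.00555 and 0.00486. nau, the fly MyoD gene, which acts with kn in the DA3 muscle, was at 22.8, 23.0, 18.8 and 18.8 RPKM in OrgR and 9.89, 11.1, 12.0 and 12.3 RPKM in esc (-0.82 ± 0.14, adjusted p = 0.0135), with 26.4% of its exonic bases shared. nau did not pass without OrgR set 1 (adjusted p = 0.0558) or esc set 1 (0.0566), nor lms without esc set 2 (0.0515).

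Proteins that bind the products of these genes, or the LIM-domain binding cofactor of Apterous, gave a list of 5 genes. Of these 3 fell, none rose and 2 did not pass (median log2 change -0.58), beside 31.6% of all tested genes that fell. Chi, which encodes the LIM-domain binding cofactor of Apterous, fell (94.0 ± 5.5 RPKM in OrgR, 64.5 ± 0.48 RPKM in esc, -0.54 ± 0.09, adjusted p = 0.0116). Bx, whose product competes with Apterous for that cofactor, fell from 7.49 ± 0.58 to 4.06 ± 0.72 RPKM (-0.75 ± 0.15, adjusted p = 0.0168). gro, a corepressor gene, fell from 69.2 ± 5.2 to 46.1 ± 5.7 RPKM (-0.58 ± 0.12, adjusted p = 0.0209), but not under median-of-ratios scaling (adjusted p = 0.0626). sd, the partner gene of vg, was at 29.3, 34.2, 48.8 and 54.1 RPKM in the OrgR libraries and at 27.3, 27.5, 22.5 and 24.2 RPKM in the esc libraries, and the difference between the OrgR sets was larger than that from OrgR set 1 to esc. Ssdp did not pass either (-0.45, adjusted p = 0.175). Without OrgR set 1 sd passed (adjusted p = 0.0311), as it did without OrgR library 1-1 (0.0483). Of the 5 genes, 2 fell under median-of-ratios scaling, beside 13.4% of all tested genes. Fewer of the 5 passed with any 1 set left out than with all sets. Chi did not pass without OrgR set 1 (0.0555), esc set 1 (0.0511) or esc set 2 (0.0623), Bx without OrgR set 1 (0.0559), OrgR set 2 (0.0786) or esc set 2 (0.0673), and gro without OrgR set 1 (0.0568), OrgR set 2 (0.0909) or esc set 2 (0.0865).

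Contractile muscle genes moved the other way. Of 18, 15 rose, none fell and 3 did not pass, beside 20.9% of all tested genes that rose, and their median log2 change was 1.48. Their summed level was 7213 to 9803 RPKM in the OrgR libraries and 22864 to 24902 RPKM in the esc libraries, and none was at the lowest value of the table. The muscle LIM protein gene Mlp60A (log2 change 3.04 ± 0.23, adjusted p = 0.00238) and the paramyosin gene Prm (2.45 ± 0.29, adjusted p = 0.0058) rose most. Of 15 founder cell, fusion and myogenic genes 5 fell, 1 rose and 9 did not pass (median -0.35), with a share of falls near the 31.6% of all tested genes. In that list sing, a fusion gene, fell from 41.7 to 21.98 RPKM (-0.89 ± 0.13, adjusted p = 0.00881), with 59.9% of its exonic bases shared, and WASp, an actin regulator gene, rose from 30.6 to 42.0 RPKM (0.44 ± 0.09, adjusted p = 0.0193). In the same list lmd, needed in fusion-competent myoblasts, fell from 24.1 to 15.3 RPKM (-0.62 ± 0.11, adjusted p = 0.0147). Under median-of-ratios scaling 2 of the 15 fell and 2 rose, beside 13.4% of all tested genes that fell and 2525 of 10547 that rose. With the set number as a block in the fit 1 fell, beside 8.52% of all tested genes, and none rose (WASp at an adjusted p of 0.0711). The log2 change of WASp was 0.40 to 0.49 with 1 set left out. With 1 set left out lmd passed without OrgR set 1 and not without OrgR set 2 (0.0684), esc set 1 (0.0653) or esc set 2 (0.0667).

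**Figure D4:**
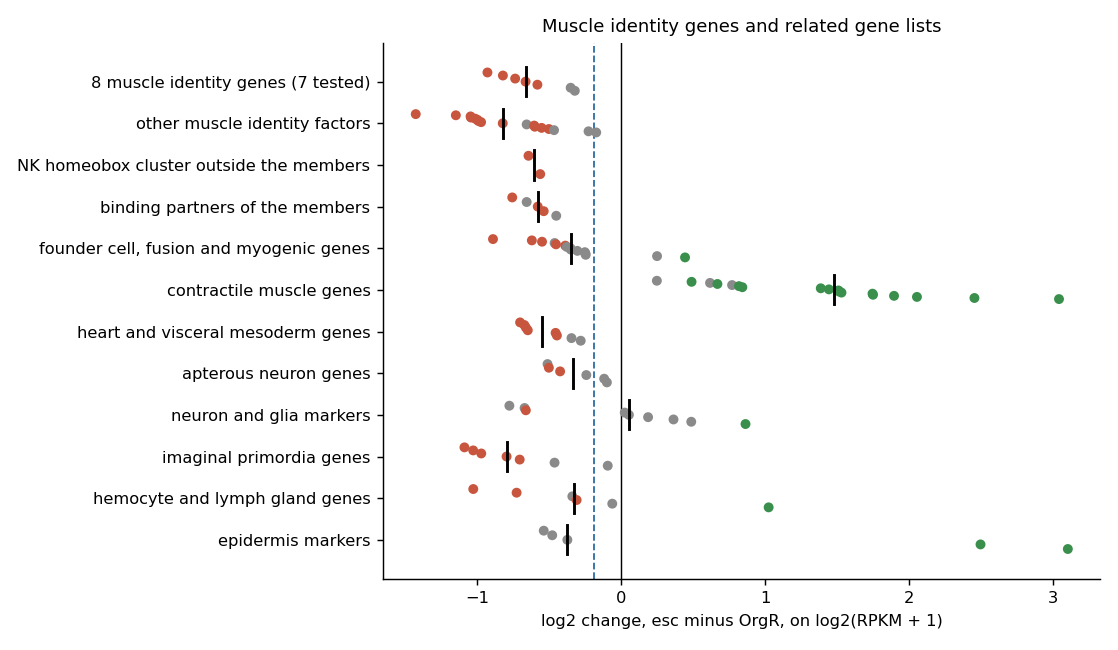
Log2 change, esc minus OrgR, of the tested genes in each list, with green points for genes that rose, red for genes that fell, grey for genes that did not pass, and black bars for list medians. Muscle identity genes lie to the left of 0 and contractile muscle genes to the right, with medians of -0.66 and 1.48, and the dashed line is the median of all tested genes.

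Several of the 8 genes are also expressed outside muscle, and genes of those tissues were counted in the same fit. Of 8 heart and visceral mesoderm genes 6 fell and none rose (median log2 change -0.55), beside 31.6% of all tested genes that fell, led by the transcription factor genes Hand (45.3 to 27.6 RPKM, -0.70 ± 0.11) and pnr (32.2 to 19.9 RPKM, -0.67 ± 0.10). Their summed level was 207 to 227 RPKM in OrgR and 145 to 150 RPKM in esc. Of 7 genes of the primordia of wings and legs, where vg, ap and C15 act later, 5 fell (median -0.79), with esg (62.0 to 28.7 RPKM) and Dll (19.8 to 9.31 RPKM) as the largest falls. Their sum was 241 to 270 RPKM in OrgR and 129 to 149 RPKM in esc. The heart count was 4 under median-of-ratios scaling and 1 to 4 with 1 set left out, and that of the primordia was 5 and 3 to 4. Of all tested genes 13.4% fell under that scaling and 6.98% to 12.8% with 1 set left out. Hand did not pass without OrgR set 1 (adjusted p = 0.0509), pnr without OrgR set 2 (0.0519) or esc set 2 (0.0530), and Dll without OrgR set 2 (0.0507).

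Neuronal genes were counted in 2 lists, to be set beside the 31.6% of all tested genes that fell and the 20.9% that rose. Among 6 tested of 7 genes of the neurons that use ap and kn, 2 fell, eya (33.2 to 23.2 RPKM, -0.50 ± 0.09) and sqz (22.8 to 16.7 RPKM, -0.42 ± 0.10), none rose, and none of these fell under median-of-ratios scaling or with any 1 set left out. FMRFa, a neuropeptide gene of that list, was below the minimum level. Of 9 neuron and glia markers, 1 rose (Gad1, 2.13 to 4.69 RPKM), 1 fell (repo, 29.8 to 18.4 RPKM) and 7 did not pass. Their median was 0.06 and their summed level 216 to 285 RPKM in OrgR and 151 to 219 RPKM in esc. Of the 7, elav (-0.77) and fne (-0.67) had lower log2 changes than repo (-0.66). Those of Syt1 (0.49), brp (0.36), ChAT (0.19), nSyb (0.06) and VGlut (0.03) were positive. repo did not pass under median-of-ratios scaling (adjusted p = 0.0583) or without OrgR set 2, esc set 1 or esc set 2 (0.0830, 0.0569 and 0.101), nor Gad1 after quantile normalization (adjusted p = 0.139).

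In 6 tested of 7 hemocyte and lymph gland genes, a tissue where kn acts, 3 fell and 1 rose (median -0.32). Of all tested genes 31.6% fell and 20.9% rose. In that list gcm (33.1 to 15.8 RPKM, -1.02 ± 0.10) and srp (58.7 to 35.2 RPKM, -0.72 ± 0.10, with 16.1% of its exonic bases shared with other genes) fell and NimC1 (0.307 to 1.66 RPKM, 1.03 ± 0.11) rose, while Hml was below the minimum level. Of 5 epidermis markers (median log2 change -0.37), the cuticle tanning enzyme genes Ddc (0.444 ± 0.051 RPKM in OrgR, 13.1 ± 9.6 RPKM in esc) and ple (4.73 ± 1.9 and 30.7 ± 6.4 RPKM) rose, beside 20.9% of all tested genes that rose. The other 3, grh (-0.54), ovo (-0.48) and sha (-0.37), had negative log2 changes and did not pass. The summed level of the list was 112 to 154 RPKM in OrgR and 132 to 137 RPKM in esc. The esc sets differed for Ddc, with 6.35 RPKM in set 1 and 19.9 RPKM in set 2. In OrgR both NimC1 and Ddc lay below the minimum mean of 0.5 RPKM, so they entered the test only through their esc levels. Without OrgR set 2, Ddc did not pass (adjusted p = 0.0545). The part that the contractile, heart, neuronal, blood, primordium and epidermis genes have in the lower levels of the 8 genes was not tested.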

How the data were processed

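The authors deposited linear, unfiltered RPKM values of 17321 genes in 8 libraries, per the labels. Libraries were unstranded, with paired reads of 150 bp, per the labels' protocols, and per the submitters' processing notes the build was dm6. The aligner, the counter and the annotation used are not given in the sources used here. RPKM values are shares of a library, so a large rise of some genes lowers all others. The lowest value, 0.001, filled 27.6% of all cells and was treated as a floor. Positions come from Ensembl release 115, whose coordinates are those of dm6, and 16717 symbols matched.

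Relative depth was read from the ratio of RPKM values at which genes with equal low read numbers pile up. Genes whose mean reached 0.5 RPKM were tested on log2(RPKM + 1) set means with limma 3.58.1 in R 4.3.3 (lmFit, eBayes with trend, two-sided, Benjamini-Hochberg over 10547 genes, threshold 0.05), with 2 residual degrees of freedom and 4.55 after moderation. The fit was run on simulated data with few changed genes, as many up as down, which is unlike these data. There only the mean estimated change was required to lie near the change put in. Nothing in the labels says that sets were separate collections, so the spread that p-values measure may be technical. The members and gene lists were chosen with earlier results of these data known. Named genes were the 8 members, esc, tin and bap, the nearest tested protein-coding genes, the 3 profiles most like that of the gene with the largest fall, and up to 2 rises and 2 falls per list. Chi, lms, ara, caup, nau, eve, Six4, sd, Lim3, Ssdp, Hml and FMRFa were added after their values were seen. So were grh, ovo, sha, elav, fne, Syt1, brp, ChAT, nSyb and VGlut, given by log2 change only to complete their lists. The list of other identity factors shares sd with the partners and eya with the neuron list. Alternatives covered the pseudocount, filter, scaling, variance trend, sets and libraries.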

Additional observations from a re-analysis of the deposited data

Results flagged for a closer look

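Among the 4 libraries of a genotype, 3 values of named genes lay far from the other 3, out of 114 groups of 4 looked at; chance gives about 1 in 20. The esc transcript was at 4.401 RPKM in esc library 2-1, with the other esc libraries at 3.56 to 3.66 RPKM, still below all OrgR libraries. Prm was at 354.031 RPKM in esc library 2-1, against 328 to 332 RPKM in the others. Ctr1B, which shares exonic bases with Poxm, was at 2.861 RPKM in OrgR library 2-1, against 3.70 to 3.84 RPKM in the others. None of the 8 muscle identity genes had such a library.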

How the results depend on the processing

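All 7 tested muscle identity genes kept a negative log2 change in all 22 alternatives. The count of changed genes, 5537 with all libraries, was 2071 to 5730 in refits without a set or library, and that of muscle identity genes that fell was 2 (without OrgR set 2, lbl and vg) to 5; a lone set was assumed to vary like the other genotype. With the set number as a replicate block the count of changed genes was 2467. Of the 8 genes 4 then fell, without slou (adjusted p = 0.0596), beside 8.52% of all tested genes. Same-numbered sets deviated in opposite directions (correlation -0.34 over 10547 genes), so the numbers were not taken as pairs. With set numbers crossed, an alternative chosen after seeing the data, the counts were 6717 and 5, and 39.8% of all tested genes fell. Median-of-ratios scaling gave 3934 changed genes and 4 of the 8, again without slou, beside 13.4% of all tested genes that fell. Of the neighbouring genes that did not pass, CG7956 (0.015) and COX7A (0.076) changed sign under median-of-ratios scaling, as did Lim3 (0.0094), and with a set or library left out InR ranged from -0.72 to 0.20 and CG34200 from -0.017 to 0.36. The table gives no read counts, so the counting error behind the low values of lbe is not known.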
